A study of Saccharomyces cerevisiae with 10 samples.

Results

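ATAC-seq cuts accessible DNA with the Tn5 transposase, and a higher peak value stands for less compact chromatin. In the ATAC-seq peaks of an evolving yeast population, 100 of 3515 merged peaks (2.84%) reached a transient high on Day 7, at the end of a week of selection. These peaks were chosen by their normalized counts, as the mean of the 2 libraries of each day. A chosen peak had a log2(Day 7/Day 3) of at least 0.3 and a log2(Day 7/Day 10) of at least 0.5. On their own, the Day 3 condition was met by 161 peaks (4.58%) and the Day 10 condition by 590 (16.8%).

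All populations came from WP35, a haploid W303 MATalpha strain of Saccharomyces cerevisiae with the genotype HO::HIS3::pGAL1-YFP, in which the galactose-inducible GAL1 promoter drives a yellow fluorescent reporter. That genotype is given as in the labels, whereas the methods name the marker at this locus HIS5. Day 0 is the strain before selection. Day 3 and Day 7 fall within the days when the cells with the lowest reporter signal were sorted for growth, and Day 10 and Day 28 follow after that selection had ended. Every population was revived from a frozen stock, grown for 22 h in synthetic complete medium with 0.1% mannose, and then for 24 h in 0.1% mannose and 0.2% galactose, so that Day 0 had the same media as the evolved days. Each of the 5 days has 2 libraries. All come from a single revived evolution replicate, and p-values measure the spread between the 2 libraries of a day only, not between separately evolved populations. The libraries held between 4748625 and 18693542 counts in peaks, with both Day 7 libraries the deepest, and the lowest count of a chosen peak in any library was 53. Both libraries of Day 3 and Day 28 and 1 of Day 10 were sequenced in more than 1 run, and only on Day 10 can the number of runs be separated from the day. In populations of cells, an open site in more cells and a more open site in each cell cannot be told apart.

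Yeast prefers fermentable sugars. As these run out, cells switch on genes for the use of ethanol, acetate, lactate and fatty acids, store glycogen and trehalose, and express a broad set of stress proteins. Many promoters of the stress set carry the stress response element (STRE), with the core letters AGGGG, which the transcription factors Msn2 and Msn4 bind. Promoters of gluconeogenic genes can carry the carbon source response element (CSRE), with the letters CCNTTNNNCCG, which is bound by Cat8 and Sip4. The chosen peaks held genes of each of these kinds.

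Of 19 motifs searched, the STRE had the largest difference in share, in percentage points, between the chosen peaks and all peaks. By this measure a common motif can differ more than a rare one. The 5 stretches of 220 bases shown are from peaks in which STRE or CSRE letters lie close together. They are the R64 reference sequence from RefSeq, 5′ to 3′ on the plus strand, with the STRE core on either strand (AGGGG or CCCCT) and, for ACS1, the CSRE in capitals. None of the 5 stretches overlaps a coding sequence. They were chosen after the motifs had been counted, and other chosen peaks whose genes have several STRE cores are not shown.
YMR105W-A and PGM2 (chrXIII:477806-478025): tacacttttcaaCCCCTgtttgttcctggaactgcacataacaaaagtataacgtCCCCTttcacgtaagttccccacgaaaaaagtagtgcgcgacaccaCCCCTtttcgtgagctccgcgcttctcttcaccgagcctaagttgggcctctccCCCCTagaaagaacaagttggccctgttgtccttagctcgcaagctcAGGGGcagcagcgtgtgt
TPS2, in the peak assigned to SNF11 (chrIV:593370-593589): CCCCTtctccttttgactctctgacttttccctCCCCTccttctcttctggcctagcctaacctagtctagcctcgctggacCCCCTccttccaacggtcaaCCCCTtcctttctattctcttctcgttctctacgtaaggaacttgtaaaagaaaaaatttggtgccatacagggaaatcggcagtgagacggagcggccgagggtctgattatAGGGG
YNL194C (chrXIV:273875-274094): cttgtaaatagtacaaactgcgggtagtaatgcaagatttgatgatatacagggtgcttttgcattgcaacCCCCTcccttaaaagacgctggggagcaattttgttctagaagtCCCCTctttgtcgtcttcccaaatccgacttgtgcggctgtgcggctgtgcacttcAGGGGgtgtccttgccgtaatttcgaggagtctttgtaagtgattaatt
GIP2 (chrV:264176-264395): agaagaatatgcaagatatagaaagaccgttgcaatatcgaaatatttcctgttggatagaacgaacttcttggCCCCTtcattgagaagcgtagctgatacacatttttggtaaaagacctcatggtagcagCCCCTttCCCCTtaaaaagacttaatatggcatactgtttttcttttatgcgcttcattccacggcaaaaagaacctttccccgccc
ACS1 (chrI:45294-45513): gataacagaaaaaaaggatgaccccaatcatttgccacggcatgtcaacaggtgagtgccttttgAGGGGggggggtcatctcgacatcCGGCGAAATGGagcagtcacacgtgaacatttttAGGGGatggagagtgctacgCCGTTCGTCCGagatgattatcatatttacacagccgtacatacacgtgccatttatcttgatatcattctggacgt

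The stretch between YMR105W-A and PGM2, which encodes phosphoglucomutase, held 5 of the 7 STRE cores of its peak, 200 bases from the start codon of PGM2. A further 5 lay 304 bases before the start codon of TPS2, which encodes trehalose-6-phosphate phosphatase. The stretch of YNL194C, a gene of the SUR7 family of plasma membrane proteins, held 3 of the 6 cores of its peak. GIP2, which encodes a putative regulatory subunit of the protein phosphatase Glc7, had 3 cores in a stretch 478 bases before its start codon. The ACS1 stretch held 2 STRE cores and 2 CSREs, 272 bases before the start codon of this acetyl-CoA synthetase gene. A match of letters is a description and does not show that a factor binds there.

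The STRE core was found in the 500 bases before the start codon of 56 of the 97 assigned protein-coding genes that matched RefSeq (57.7%), compared with 34.6% of 2942 such genes over all peaks. At least 2 cores were found for 21.6% of the chosen genes and for 8.02% of all. In the 300 bases at the centre of each peak, a window added after the data had been seen, the core was in 40 of the 100 chosen peaks (40.0%) and in 23.2% of all peaks. The difference varied with abundance, the mean normalized count of the peak, by which all peaks were split into 5 groups of equal size. In the most abundant group 25 of 45 chosen genes had the core (55.6%) against 49.7% of all its genes, and in the middle group 12 of 15 (80.0%) against 31.6%. In the least abundant group it was 1 of 4 against 25.6% of all. Among the other letters searched on both strands, GGCGGC (URS1) was before 18.6% of the chosen genes and 9.42% of all. TNAGGGAT (the post-diauxic shift element) was before 8.25% and 3.81%. The letters CGGNNNNNNNNNNNCCG (the site of the galactose activator Gal4) were before 8.25% and 2.75%. For the CSRE, which was added to the search later, the shares were 6.19% and 2.55%. GATGAG (PAC, found before ribosome biogenesis genes) was before 18.6% of the chosen genes and 27.1% of all. In the 300 bases at the peak centre, the post-diauxic shift element was in 2% of the chosen peaks and 2.48% of all. There the Gal4 site was in 3% and 2.08%, and URS1 in 11% and 6.46%. The CSRE was in 3% and 1.71% at the centre, and PAC in 14% and 17.2%.

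**Figure D1:**
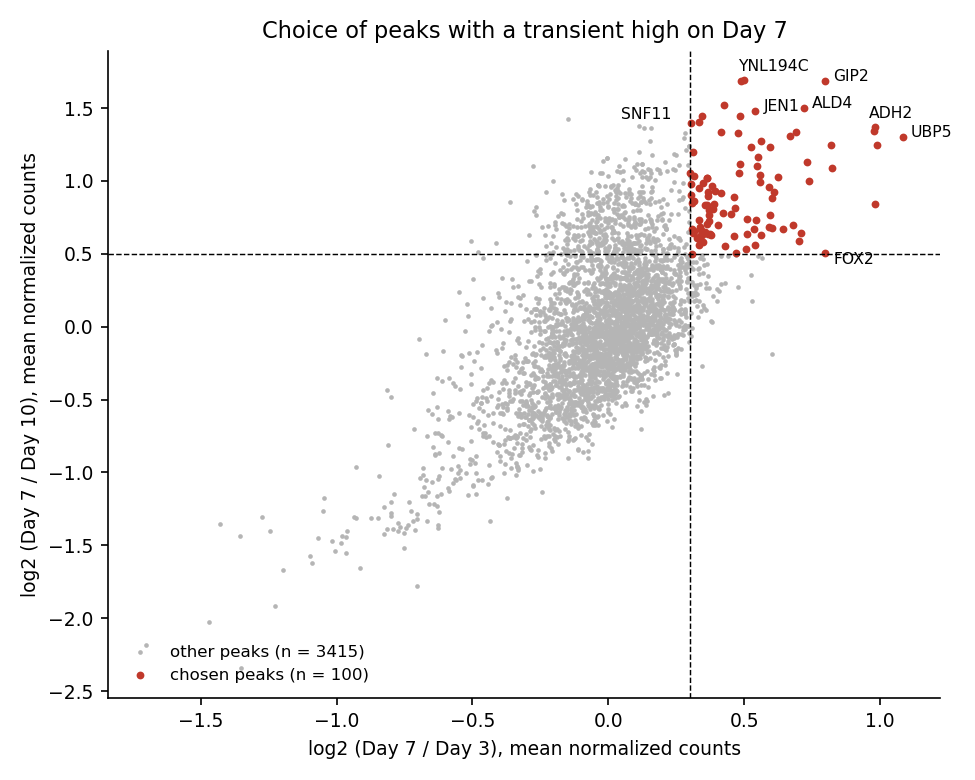
Each point is a merged peak, with log2(Day 7/Day 3) on the x axis and log2(Day 7/Day 10) on the y axis, both from mean normalized counts of 2 libraries per day. Dashed lines mark the thresholds of 0.3 and 0.5, and the 100 red points in the upper right corner are the chosen peaks, with 3415 other peaks in grey.

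The rule fixed the direction of the chosen peaks on Days 3, 7 and 10, and their values on these days are given as a description. Over the 100 peaks the median log2(Day 7/Day 3) was 0.46, ranging from 0.30 to 1.08, and the median log2(Day 7/Day 10) was 0.87, from 0.50 to 1.69. Over all peaks both medians were -0.003. Both Day 7 libraries lay above every Day 3 and Day 10 library in all 100 chosen peaks and in 22.0% of all peaks. The median log2(Day 7/Day 0) was 0.55, with a range from 0.10 to 1.17, and since the Day 7 values had been chosen to be high, this too is a description. In 99 of the chosen peaks both Day 7 libraries lay above all 8 other libraries, 4 of which the rule had used, as they did in 16.8% of all peaks. Between Day 0 and Day 3 the chosen peaks went both ways, with log2(Day 3/Day 0) from -0.29 at YIG1 to 0.51 and a median of 0.075. It was 0.48 at FMP45 and 0.47 at SED1.

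In each library the level of the chosen peaks was taken relative to the mean of each peak over the 10 libraries. The median of these log2 values was -0.15 and 0.071 in the Day 0 libraries and 0.032 and 0.069 in those of Day 3. It stood at 0.54 and 0.47 in the Day 7 libraries, then at -0.26 and -0.46 in those of Day 10 and at -0.45 and -0.27 in those of Day 28. The 2 Day 7 libraries were thus close to each other, while the Day 10 and Day 28 libraries both lay below those of Day 0. The chosen peaks took 6.66% and 6.53% of all counts in peaks on Day 7 and between 3.64% and 5.10% in the other libraries.

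**Figure D2:**
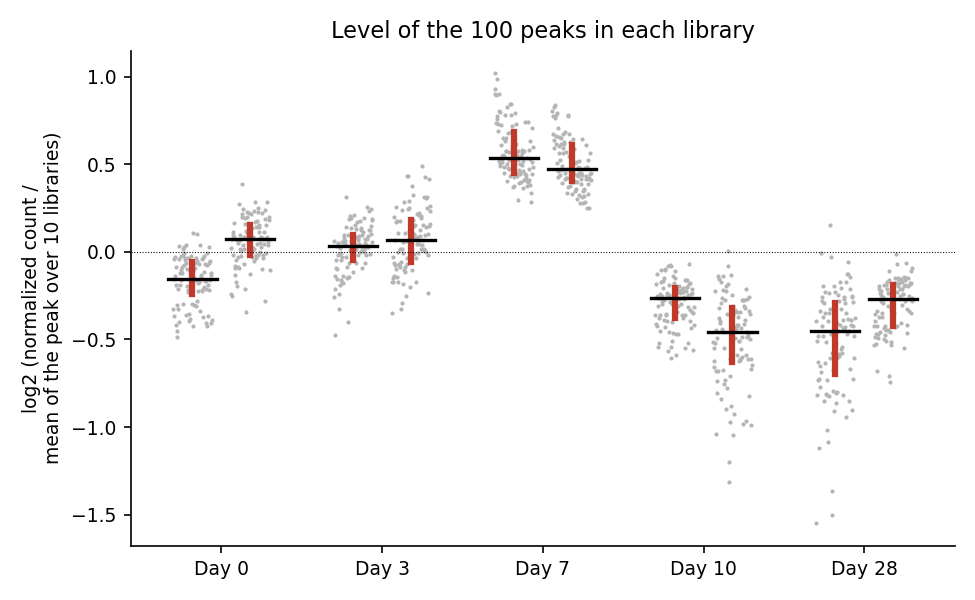
Grey points are the 100 chosen peaks in each of the 10 libraries, as the log2 of the normalized count over the mean of the peak, with the 2 libraries of a day side by side. Black lines are medians and red bars run from the lower to the upper quartile. The Day 7 medians of 0.54 and 0.47 are above those of all other libraries, and those of Day 10 and Day 28 lie between -0.46 and -0.26.

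In the authors' annotation 82 of the chosen peaks (82.0%) were at promoters, 11 at transcription ends and 7 in exons, with none between genes. Over all peaks these shares were 85.4% for promoters, 10.7% for transcription ends, 3.24% for exons and 0.683% between genes. An mRNA was the assigned unit of 99 chosen peaks (99.0%) and of 93.0% of all peaks. A tRNA was assigned to a single chosen peak, tA(AGC)K2, an alanine tRNA, compared with 5.38% of all peaks. By the days given in their names, 86 of the chosen peaks (86.0%) had been called as peaks on all 5 days, against 77.1% of all peaks. Another 4 had been called on Day 7 alone, as had 0.370% of all peaks. The chosen peaks were long, with a median of 1365 bp against 868 bp, and 47 of them (47.0%) covered the starts of at least 2 genes, against 37.6% of all peaks. The gene assigned to a peak is therefore not always the gene that starts in it. Their median GC content was 38.5%, against 38.4% over all peaks.

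The chosen peaks were also abundant. By mean normalized count, 81 of the 100 were among the 1757 most abundant peaks and 22 among the top 352. Per kb of peak length the median was 3306 normalized counts, against 2206 over all peaks. From the least to the most abundant of the 5 groups, 5, 7, 16, 27 and 45 peaks were chosen. Across all 3515 peaks, which are not independent and share their libraries, abundance had a Pearson correlation of 0.23 with log2(Day 7/Day 3) and of 0.74 with log2(Day 7/Day 10). After loess normalization on abundance, 106 peaks met the rule, of which 67 were among the 100 (67.0% of the 100 and 63.2% of the 106). Chosen peaks that no longer met it included those of ACS1, JEN1, SNF11, YMR105W-A, GSY2, RPL43B, ATO3 and CTA1. Those that still met it included UBP5, SPG1, ALD4, ADH2, GIP2, ATH1, YNL194C, GRE1, SIP18 and SED1. With total counts in peaks as the scale, 45 peaks met it, all among the 100. By chromosome, the chosen share was highest on XIII, with 12 of 263 peaks (4.56%), and IV, with 20 of 460 (4.35%), and no peak was chosen of the 78 on VI. A neighbouring peak was among the chosen for 15 of them and for 5.46% of all peaks. The longest such run was on chromosome IV from 587877 to 602793, with the adjacent peaks of FMP16, SNF11 and SED1.

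The peaks just inside and outside the thresholds had similar values. At the Day 3 threshold, ATO3 and YMR105W-A had a log2(Day 7/Day 3) of 0.302 and 0.303 and were chosen, whereas RIE1 with 0.299 and YLR299C-A with 0.297 were not. At the Day 10 threshold, CBC2 and YPL277C had a log2(Day 7/Day 10) of 0.501 and 0.505, whereas RRI1 had 0.499 and FRQ1 0.492.

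The largest rise from Day 3 was at UBP5, which encodes a ubiquitin-specific protease. Its peak on chromosome V (459936 to 460562) stood at 1872 and 1982 normalized counts on Day 0 and 1958 and 2082 on Day 3, then 4467 and 4089.8 on Day 7, followed by 1823 and 1644 on Day 10 and by 1784 and 1749.7 on Day 28. The Day 7 mean was 2.12 times that of Day 3 and 2.47 times that of Day 10, and the 8 libraries of the other days all lay between 1644 and 2082. SPG1, a gene required for survival in stationary phase, shares its peak on chromosome VII (961877 to 963740) with the start of MIC26, a gene of the mitochondrial MICOS complex. This peak had 4063 and 4767 normalized counts on Day 0 and 4113 and 4076 on Day 3, then 8444 and 7733 on Day 7, followed by 3401 and 2866 on Day 10 and by 2564 and 3229 on Day 28. Here the libraries after Day 7 lay below both Day 0 libraries, while Day 0 and Day 3 overlapped.

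Further peaks with large rises were at YIG1, MIH1, HMS1 and YOR392W. MIH1 encodes a phosphatase that acts on the cyclin-dependent kinase Cdc28, and its peak had 3831 and 3476 normalized counts on Day 7, against 2099 and 2027 on Day 3, with 1879.5 and 1556 on Day 10. The peak assigned to HMS1, a regulator of pseudohyphal growth, covers the start of CRS5, a copper-binding metallothionein gene, and had 4263 and 4269.6 on Day 7, against 2432 and 2409 on Day 3, with 2033 and 1570.2 on Day 10. YIG1 was 1.98-fold higher on Day 7 than on Day 3 and 1.79-fold higher than on Day 10. The peak of YOR392W, which is 1 of those called on Day 7 alone, had only 571 to 725 normalized counts on Day 7, and 1.98 times the Day 3 mean. ALT2, a paralog of the alanine transaminase gene ALT1, was 1.61-fold and 2.52-fold higher on Day 7 than on Day 3 and Day 10.

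Genes for the use of nonfermentable carbon sources held more of the chosen peaks than any other list of genes that was examined. Of the 22 peaks assigned to genes of gluconeogenesis, the glyoxylate cycle and acetate use, 7 were chosen (31.8%), against 2.84% of all peaks. The 7 were ALD4, JEN1, ADH2, ACS1, ADY2, SIP4 and CAT2. In the most abundant of the 5 groups of all peaks, the chosen share was 6.40%. After loess normalization on abundance JEN1 and ACS1 no longer met the rule, while ALD4, ADH2, ADY2, SIP4 and CAT2 did. The lists were made with earlier results of these data known, so these shares are a description.

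ALD4 encodes a mitochondrial aldehyde dehydrogenase that makes acetate. Its peak on chromosome XV (1038832 to 1041611) had 10023 and 12883 normalized counts on Day 0 and 13531 and 16384 on Day 3, then 25662 and 23610.2 on Day 7, followed by 9556 and 7842 on Day 10 and by 8048 and 9759 on Day 28. It had risen somewhat by Day 3, and on Day 7 stood 1.65-fold above Day 3 and 2.83-fold above Day 10. ACS1, which makes acetyl-CoA from acetate, lies in a peak on chromosome I (41980 to 46517) that also covers the starts of PEX22 and FLC2. That peak had 12651 and 15339 normalized counts on Day 0 and 15688 and 17874 on Day 3, then 27484 and 25798 on Day 7, followed by 11588 and 9880.0 on Day 10 and by 9837 and 12238 on Day 28. The Day 10 and Day 28 libraries of ACS1 lay below both Day 0 libraries.

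JEN1, the permease for lactate and pyruvate, had the longest of the chosen peaks, on chromosome XI from 20208 to 25152. It had 19217 and 24884 normalized counts on Day 0 and 27217 and 30057 on Day 3, then 43752 and 39552 on Day 7, followed by 16643 and 13246 on Day 10 and by 13922 and 18091 on Day 28. ADH2, the glucose-repressed alcohol dehydrogenase that oxidizes ethanol, lies in a peak on chromosome XIII (872173 to 875251) that also covers the starts of YME2 and UBP15. This peak had 7850.4 and 8501 normalized counts on Day 0 and 8765 and 9937 on Day 3, then 18823 and 17978 on Day 7, followed by 7550.3 and 6934 on Day 10 and by 7111 and 7919 on Day 28. Its Day 28 libraries overlapped those of Day 0, unlike those of JEN1.

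ADY2, an acetate transporter, was 1.66-fold higher on Day 7 than on Day 3 and 2.18-fold higher than on Day 10, and its 2 Day 28 libraries were 6719 and 6719.7. CAT2, a carnitine acetyltransferase, was 1.51-fold and 1.70-fold higher on Day 7. SIP4, an activator of gluconeogenic genes that binds the CSRE, was 1.29-fold and 1.79-fold higher. The peak of ATO3, a further member of the family of ADY2, passed the Day 3 threshold narrowly, with 20519 and 18569 normalized counts on Day 7, against 15424 and 16290.4 on Day 3, with 10160.3 and 8689 on Day 10. The peak assigned to RPL43B, a ribosomal protein gene, covers the start of SFC1, which encodes a mitochondrial transporter of succinate and fumarate, and had 24012 and 21868 on Day 7, against 17465 and 18566 on Day 3, with 12549 and 10644 on Day 10.

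**Figure D3:**
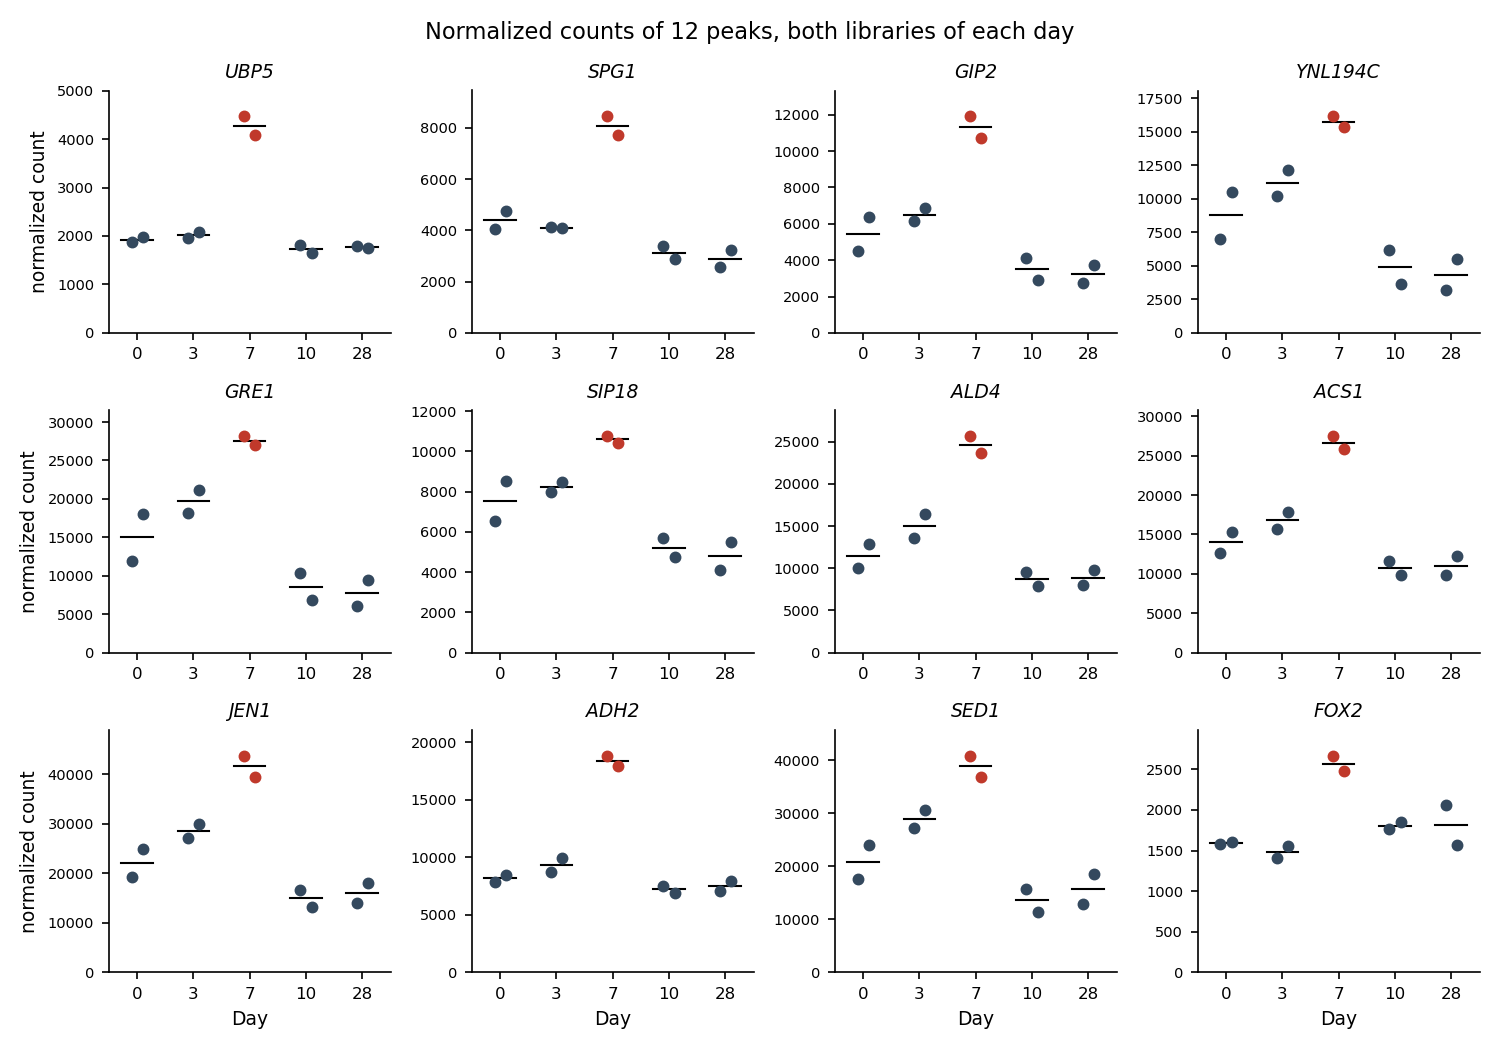
Normalized counts (y axis, from 0) of 12 chosen peaks by day (x axis), with a point for each library and a line at the mean of the 2. Day 7 is in red. At UBP5 the other days lie between 1644 and 2082, whereas GIP2, YNL194C, GRE1 and SIP18 were lower on Day 10 and Day 28 than on Day 0.

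The reserve carbohydrate genes on the list of glycogen and trehalose metabolism held 3 chosen peaks among 13 (23.1%). GIP2 had a peak on chromosome V (264037 to 265124) with 4493 and 6373 normalized counts on Day 0 and 6130.3 and 6876 on Day 3, then 11901 and 10705 on Day 7, followed by 4113 and 2919.9 on Day 10 and by 2760.4 and 3745 on Day 28. No gene starts within it. ATH1, which encodes acid trehalase, shares its peak with the start of CCL1, and was 1.67-fold higher on Day 7 than on Day 3, with 6055 and 5747 normalized counts against 3508 and 3561. GSY2, a glycogen synthase gene, was 1.24-fold and 1.82-fold higher on Day 7 than on Day 3 and Day 10. By the gene that starts in the peak, a reading added after the data had been seen, TPS2 and PGM2 joined this list. TPS2 starts in the peak assigned to SNF11, a subunit of the SWI/SNF remodeler, with 37067 and 33475 normalized counts on Day 7, against 26825 and 30259.8 on Day 3, with 15353 and 11439 on Day 10. PGM2 starts in the peak assigned to YMR105W-A, with 10598 and 10074 on Day 7, against 7861 and 8897 on Day 3, with 6086 and 4961 on Day 10. After loess normalization on abundance, the peaks of GSY2, SNF11 and YMR105W-A no longer met the rule, while those of GIP2 and ATH1 did.

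Of the 11 peaks of eisosome and SUR7 family genes, which act at furrows of the plasma membrane, 3 were chosen (27.3%). YNL194C had the largest difference between Day 7 and Day 10 of all chosen peaks, 3.23-fold. Its peak on chromosome XIV (273190 to 274787) had 7010.1 and 10529 normalized counts on Day 0 and 10218 and 12113 on Day 3, then 16139 and 15382 on Day 7, followed by 6150.1 and 3609 on Day 10 and by 3167 and 5489 on Day 28. The peak of FMP45, another gene of that family, also covers the start of HBT1 and was 1.27-fold and 2.72-fold higher on Day 7 than on Day 3 and Day 10. SLM1, whose product binds a phosphoinositide of the plasma membrane, was 1.26-fold and 1.94-fold higher.

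The general stress response list held 5 chosen peaks among 23 (21.7%), at GRE1, SIP18, HSP32, GPX1 and OM45. GRE1 encodes a hydrophilin induced by osmotic stress. Its peak on chromosome XVI (127760 to 130890), which also covers the starts of MMT2 and FMP40, had 11944 and 18057 normalized counts on Day 0 and 18129.9 and 21191 on Day 3, then 28155 and 27025 on Day 7, followed by 10332 and 6846 on Day 10 and by 6109 and 9382 on Day 28. SIP18, a paralog of GRE1, lies on chromosome XIII (609697 to 611933) in a peak with 6528 and 8518 on Day 0 and 7979 and 8493 on Day 3, then 10754 and 10430.1 on Day 7, followed by 5672 and 4757 on Day 10 and by 4124 and 5499.8 on Day 28. In both peaks the libraries fell into the same order, with Day 7 highest, Days 0 and 3 overlapping or adjacent, and Days 10 and 28 lowest. GPX1, a peroxidase for phospholipid hydroperoxides, was 1.45-fold and 1.59-fold higher on Day 7 than on Day 3 and Day 10. The peak of HSP32 had 445 and 436 normalized counts on Day 7, but 13.3% of its 100-base windows occur elsewhere in the genome, so its reads cannot all be placed. By its name, this peak had been called on Day 3 alone and not on Day 7. The start of HSP26, a small heat shock protein gene, lies in the chosen peak assigned to YBR071W, named after its values were seen, which had 12895 and 11754 on Day 7, against 8092 and 9509 on Day 3, with 6089 and 5264 on Day 10.

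Among cell wall genes 3 of 42 peaks were chosen (7.14%), at SED1, PIR3 and PST1. SED1 encodes an abundant cell wall protein of stationary phase. Its peak on chromosome IV (599338 to 602793) had 17559 and 24068 normalized counts on Day 0 and 27268 and 30587 on Day 3, then 40793 and 36805 on Day 7, followed by 15662 and 11432 on Day 10 and by 12932 and 18519.7 on Day 28. The peak of PIR3 also covers the start of its neighbour PIR1, another gene of the same family of glycosylated wall proteins. Peroxisome genes held 2 chosen peaks of 24 (8.33%). These were CTA1, the peroxisomal catalase, with 5563 and 5415 on Day 7 against 3144 and 3569 on Day 3, and FOX2, an enzyme of fatty acid oxidation, with 2666 and 2478 against 1405 and 1554.

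The remaining lists held at most 3 chosen peaks each, with shares on both sides of the 2.84% of all peaks. The tricarboxylic acid cycle and respiratory chain had 3 of 37 (8.11%), at STF1, COX7 and LSC2, and the ubiquitin proteases and proteasome 3 of 32 (9.38%), at UBP5, PRE5 and UBP13. A single peak was chosen for hexose transport (HXT3, 1 of 11, 9.09%), mating (FUS3, 1 of 12, 8.33%) and amino acid synthesis (GDH1, 1 of 45, 2.22%). The same held for mitochondrial ribosomal proteins (MRPL51, 1 of 49, 2.04%), cytosolic ribosomal proteins (RPL43B, 1 of 75, 1.33%) and tRNA genes (tA(AGC)K2, 1 of 189, 0.529%). The chosen HXT3 peak, assigned to a low-affinity glucose transporter gene, was annotated at a transcription end, at -1863 bases from the start of HXT3, and covers no gene start. That of GDH1 was also annotated at a transcription end, at 1176 bases from the start of GDH1. It covers no gene start and is the peak next to that of ALD4. The tA(AGC)K2 peak was at -702 bases from the start of its tRNA gene and covers no gene start. By assigned gene, no peak was chosen on the other 10 lists, which include the GAL network (0 of 5), glycolysis and fermentation (0 of 11), autophagy (0 of 26) and ribosome biogenesis (0 of 39). In all, 35 of the chosen peaks were assigned to a gene on a list, as were 21.4% of all peaks. By the gene that starts in the peak or is assigned to it, 42 chosen peaks and 28.4% of all peaks were on a list. Under that reading nutrient signalling (the peak of CAP2) and meiosis (that of YHR139C-A) also had a chosen peak each.

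**Figure D4:**
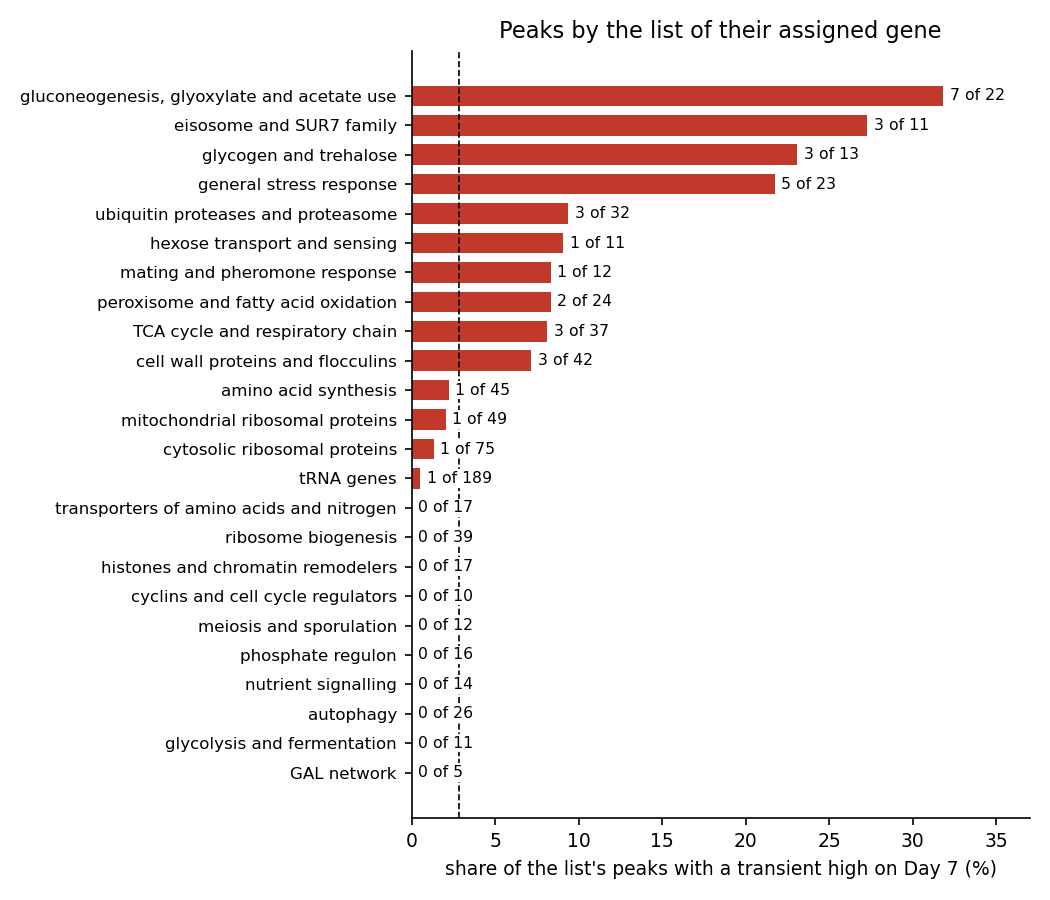
Bars give the share of the peaks on each list of genes, by assigned gene, that were chosen for a high on Day 7 (x axis, in percent), with the counts beside them. The dashed line is the share of all peaks, 2.84%. The 4 longest bars, from 31.8% to 21.7%, are the lists of gluconeogenesis and acetate use, eisosomes, glycogen and trehalose, and general stress.

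Whether the chosen peaks were back at their starting level by Day 28 was tested on libraries that the rule had not used. The contrast is still not independent of the choice. The rule favoured low values on Day 10, and the Day 28 level lay close to that of Day 10. The median log2(Day 10/Day 0) of the chosen peaks was -0.34, against -0.019 over all peaks, and their median log2(Day 28/Day 10) was 0.009. How much of a low Day 28 level carries over from the choice was not tested. The chosen peaks were on balance below Day 0 on Day 28, and not at it. The median log2(Day 28/Day 0) was -0.33, ranging from -1.01 to 0.21, compared with 0.010 over all peaks, and 92 of the 100 values were below 0. With edgeR's quasi-likelihood test and a Benjamini-Hochberg adjusted p under 0.05, 30 of the chosen peaks were called, all of them lower on Day 28. Over all 3515 peaks, 8.82% were called, 4.30% lower and 4.52% higher on Day 28. No chosen peak was called higher by edgeR or DESeq2, and 1 was higher at an unadjusted p under 0.05 in edgeR, against 63 that were lower. Both Day 28 libraries lay below both Day 0 libraries in 80 chosen peaks, against 26.7% of all peaks, and above them in 2, against 28.3% of all peaks. DESeq2 called 31 of the chosen peaks, all lower.

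The count of calls rested on single libraries, while the direction of the median did not. Without replicate 2 of Day 0, 7 chosen peaks were called, against 0.910% of all peaks, and without replicate 1 of Day 28, the shallowest library, 14, against 3.58%. Without replicate 2 of Day 28, 50 were called, of which 2 were higher, against 21.1% of all peaks. In these fits, which keep a single library for a day and take its spread from the others, the median log2 of the chosen peaks was between -0.43 and -0.22. The log2 also followed abundance, with a correlation across all peaks of -0.28. Within each of the 5 groups of abundance the chosen peaks had a lower median than all peaks. It was -0.46 against 0.11 in the least abundant group and -0.36 against -0.064 in the most abundant. After loess normalization on abundance, 42 chosen peaks were called, all lower, with a median of -0.30. Both Day 28 libraries were sequenced in more than 1 run and neither Day 0 library was, and this cannot be told apart from the day.

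YNL194C showed the largest fall among the chosen peaks. Its log2(Day 28/Day 0) was -1.01 (standard error 0.21, adjusted p = 0.00724 from edgeR), and DESeq2 did not call it (adjusted p = 0.194). GRE1 fell by 0.95 on the log2 scale (standard error 0.22, adjusted p = 0.0145 from edgeR), and DESeq2 did not call it either (adjusted p = 0.157). Without replicate 1 of Day 28 neither was called, and both had a log2 of -0.68. GRE1 was also not called without replicate 2 of Day 0 (-0.64). The other large falls were at WHI4 (log2 of -0.88, adjusted p = 0.00271 from edgeR), an RNA-binding regulator of cell size, whose peak was at -989 bases from the annotated start, and at YOR392W (-0.87, adjusted p = 0.0495). The YOR392W call was lost without either Day 0 library and without replicate 1 of Day 28. PRM8, a pheromone-regulated gene, had 898 and 1137 normalized counts on Day 28 against 1607 and 1814 on Day 0, a log2 of -0.73 (standard error 0.12, adjusted p = 0.00271 from edgeR).

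Falls were also called in the reserve carbohydrate and eisosome groups. GIP2 fell by 0.73 (standard error 0.15, adjusted p = 0.0072 from edgeR) and ATH1 fell by 0.60 (standard error 0.11, adjusted p = 0.00376), while GSY2 had a log2 of -0.28 and was not called. SLM1 fell by 0.39 and was called with an adjusted p of 0.0238 from edgeR, but not by DESeq2. FMP45 had a log2 of -0.60 and was not called by edgeR (adjusted p = 0.101), whereas DESeq2 called it (adjusted p = 0.00916). Its libraries had 16571 and 22729.7 normalized counts on Day 0 against 11164 and 14709 on Day 28, without overlap. Without replicate 2 of Day 0, the calls of GIP2 (log2 of -0.48) and SLM1 were lost, and that of ATH1 was kept. In the stress list SIP18 fell by 0.64 (adjusted p = 0.0165 from edgeR), and HSP32 (-0.83, adjusted p = 0.0504), OM45 (-0.34) and GPX1 (-0.28) had log2 values below 0 without a call. DESeq2 called HSP32 (adjusted p = 0.00943). Without replicate 2 of Day 0 or without replicate 1 of Day 28, no chosen peak of the stress list was called.

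CIN5, a transcription factor of the Yap family, had a chosen peak at its transcription end, which fell by 0.70 (adjusted p = 0.00532 from edgeR). SPG1 fell by 0.60, the HMS1 peak fell by 0.58 and MIH1 fell by 0.52, with adjusted p-values of 0.00532, 0.00376 and 0.00532 from edgeR. The calls of HMS1 and MIH1 were lost without replicate 2 of Day 0, and those of SPG1 and CIN5 held with each library left out. UBP13, the tA(AGC)K2 peak and MRPL51 were also called lower, with log2 values of -0.37, -0.43 and -0.49, and none of the 3 was called without replicate 2 of Day 0 or without replicate 1 of Day 28. DESeq2 did not call UBP13 (adjusted p = 0.0599) or tA(AGC)K2 (adjusted p = 0.0670). Total counts and thinning lost the call of UBP13, and loess normalization that of tA(AGC)K2. Without replicate 1 of Day 0, UBP13 had a log2 of -0.41 and was not called either.

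None of the 7 chosen peaks of gluconeogenesis and acetate use was called by edgeR, 1 was below an unadjusted p of 0.05, and DESeq2 called 1, JEN1. All 7 log2 values were below 0. They were -0.46 for JEN1 (95% interval -0.94 to 0.03), -0.36 for ALD4 (-0.73 to 0.01), -0.34 for ACS1 (-0.73 to 0.06), -0.16 for CAT2 (-0.34 to 0.03), -0.15 for ADY2 (-0.43 to 0.14) and -0.12 for ADH2 (-0.42 to 0.18), and SIP4 had -0.31 (-0.53 to -0.09). Apart from that of SIP4 these intervals include 0. Those of JEN1, ALD4, ACS1, ADY2 and ADH2 also include falls as large as some of those called in other peaks, so that a return to the Day 0 level was not shown for any of the 7. Loess normalization called JEN1 and ALD4, with adjusted p-values of 0.0157 and 0.0477 from edgeR.

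Fewer of the chosen peaks than of all peaks were near their Day 0 level on Day 28. The 95% interval of log2(Day 28/Day 0) included 0 for 36 chosen peaks and for 75.1% of all peaks. It lay within 0.5 of 0 on either side for 35 and for 72.1% of all. The estimate itself was within 0.3 of 0 for 45 chosen peaks (45.0%) and 82.6% of all peaks, and at or below -0.5 for 22 (22.0%) and 2.08%. UBP5, with the largest rise on Day 7, had a log2 of -0.12 (95% interval -0.31 to 0.07). FUS3 had -0.04 (-0.23 to 0.14), HXT3 0.01 (-0.20 to 0.22) and ATO3 0.02 (-0.36 to 0.40), and the sign of each of these 3 changed in at least 1 fit with a library left out. FOX2 had the higher value of 0.18 (-0.05 to 0.42), and its Day 28 libraries, 2059 and 1573, lay on both sides of those of Day 0, 1581 and 1602. Without replicate 2 of Day 28, FOX2 was called higher by edgeR, with a log2 of 0.38.

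**Figure D5:**
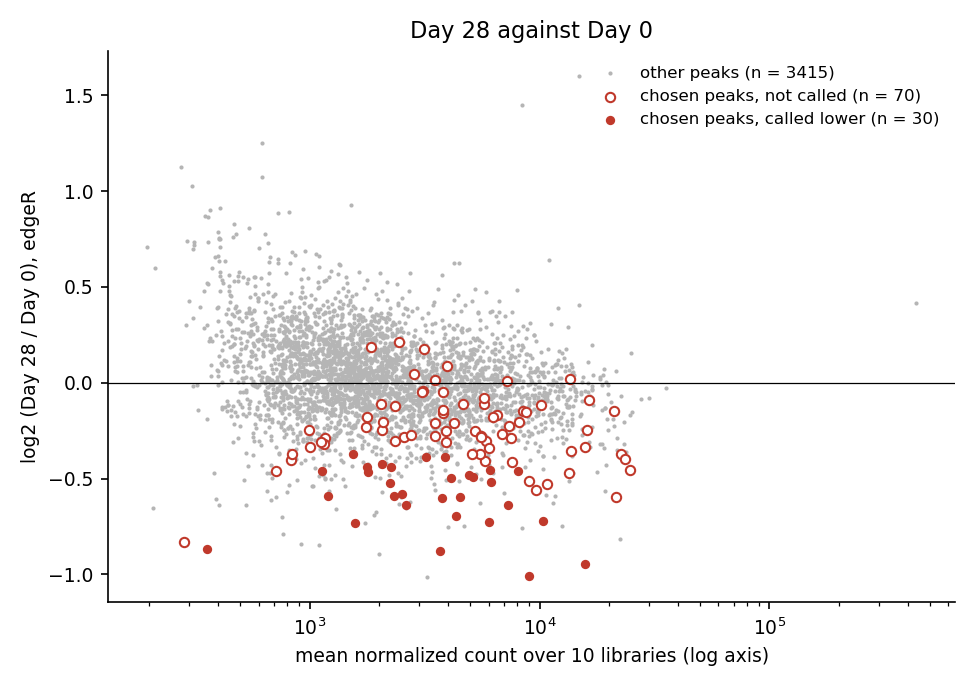
Each point is a peak, with the mean normalized count over 10 libraries on the x axis (log scale) and edgeR's log2(Day 28/Day 0) on the y axis. Filled red points are the 30 chosen peaks called lower on Day 28, open red points the 70 not called, and grey points the 3415 other peaks. The red points lie mostly below 0 over the whole range of abundance.

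Set against Day 10, the Day 28 level of the chosen peaks had a median log2 of 0.009, with a range from -0.57 to 0.36. Since the rule had used Day 10, this value is a description. The lowest mean of the 5 days fell on Day 10 for 49 of the chosen peaks and on Day 28 for 47, compared with 30.7% and 12.3% of all peaks.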

How the data were processed

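ATAC-seq libraries from 5 days, 2 per day, were used. The authors trimmed reads with Trim Galore 0.5.0, mapped them with Bowtie2 2.2.9 to R64, called peaks per day with MACS2 2.1.1, merged them with bedtools 2.30.0 and annotated them with HOMER. They deposited raw counts per merged peak from featureCounts 1.6.3. They also deposited normalized counts, a signal in which each library's counts are scaled by a single size factor, and list DESeq2 1.30.1 among their tools. The handling of duplicate, mitochondrial and multiply mapped reads is not given in the sources used here. No deposited fold changes or p-values were used.

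The rule was applied to the normalized counts. Day 28 was compared with Day 0 on the raw counts of 4 libraries with edgeR 4.0.16 in R 4.3.3 (TMM, filterByExpr, quasi-likelihood test, two-sided, Benjamini-Hochberg adjustment over 3515 peaks). The filter removed no peak. The procedure was tested on simulated data. Standard errors were computed from edgeR's log2 fold change and F statistic, and 95% intervals from these with a t distribution. Chosen peaks and lists of genes were taken with earlier results of these data known. A chosen peak was named where it was among the 12 largest by the smaller of log2(Day 7/Day 3) and log2(Day 7/Day 10), among the 4 largest of a list by log2(Day 7/Day 10), among the 5 largest called in a direction between Day 0 and Day 28, among the 4 largest assigned to a noncoding unit or of a class outside promoters, or among the 2 closest to a threshold. The 2 nearest peaks outside each threshold were named too. YBR071W, SIP4, CAT2, OM45, FMP16, CAP2 and YHR139C-A fall outside this rule and were named after their values were seen. Coordinates are R64, the build of the files and of the RefSeq reference. Symbols came from RefSeq, where the assigned genes of 97 chosen peaks matched. Motifs were searched in RefSeq sequence on both strands with Python 3.11.15, and a further stretch is not reported here.

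Alternatives covered DESeq2 1.42.0, a fit of all 10 libraries, total counts, loess on abundance (span 0.3), a minimum mean of 200 counts, no filter, thinning to the smallest library, stricter thresholds, other thresholds of the rule and each library left out. The gene start in the peak, the CSRE and the window at the peak centre were added after seeing the data.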

Additional observations from a re-analysis of the deposited data

How the results depend on the processing

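The number of chosen peaks was 100, and it stayed between 80 and 126 with each Day 3, Day 7 or Day 10 library left out. Total counts gave 45 peaks, thresholds of 0.2 and 0.4 gave 199, thresholds of 0.4 and 0.6 gave 51, and 0.5 for both gave 40. The other alternatives gave 95 to 106 peaks. Between Day 28 and Day 0 edgeR called 310 of all peaks, 77 at an adjusted p under 0.01, 132 with an absolute log2 of at least 0.5, and 527 with all 10 libraries in a single fit. Of the chosen peaks it called 30, and 12, 17 and 45 under the same settings. With each library left out in turn, calls ranged from 32 to 742 over all peaks and from 7 to 50 over the chosen peaks. The median log2 of the chosen peaks was below 0 in every fit run, from -0.43 to -0.22.

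Of the named peaks, 4 changed sign in the log2 of Day 28 over Day 0. After thinning, HXT3 (0.011) was -0.016 and ATO3 (0.019) was -0.0017. With each library left out in turn, HXT3 ranged from -0.109 to 0.123, ATO3 from -0.125 to 0.148, FOX2 (0.18) from -0.016 to 0.38 and FUS3 (-0.042) from -0.114 to 0.015. The cause was not tested. Over all named peaks and fits, 437 values kept their direction and their side of the threshold, 8 changed sign and stayed uncalled, 34 gained a call and 27 lost it. A minimum mean of 200 counts and no filter left every value as it was, since no peak was removed. No paired analysis was possible because the Day 0 and Day 28 libraries share no replicate label. With 2 libraries per day, a change of a size near the spread between them could not be detected. The standard error was 0.27 at YOR392W, with 53 raw counts in replicate 1 of Day 28, and 0.23 at JEN1, with 6032. Whether counts per peak limited the precision was not tested.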
